A study of Mus musculus with 6 samples.

Results

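The 10 genes described here are Atf4, 4 other transcription factors of the integrated stress response (Atf5, Ddit3, Cebpb and Cebpg) and 5 genes that ATF4 is known to switch on (Asns, Sesn2, Ddit4, Trib3 and Chac1). They were chosen by name, with no threshold on their values, though earlier results of these data were known. The further lists below were chosen in the same way. All 10 were measured, among 19938 genes tested. Each had exactly 1 probe set, a group of array probes, that named its symbol alone.

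The cells were BDC2.5 CD4 T cells, which carry a transgenic T cell receptor for an islet antigen. They had been transferred into female NOD mice, a strain that develops autoimmune diabetes, and the mice were 7 weeks old. The mice received PBS, 100 ng of anti-DEC205-BDC antibody or 100 ng of anti-DCIR2-BDC antibody, which carry the antigen to dendritic cells with DEC205 or with DCIR2 on their surface. Thy1.1+CD4+ cells were sorted from the spleen after 14 hours, and each of the 3 groups has 2 Affymetrix arrays. All 6 arrays share the host strain and the transferred transgenic cells, no group received an antibody without the antigen, and the labels give neither the number of mice behind an array nor further alleles.

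In the integrated stress response, kinases that sense amino acid shortage, unfolded protein, haem lack or viral RNA phosphorylate the initiation factor eIF2. This lowers protein synthesis in general but raises translation of the Atf4 mRNA, so ATF4 protein can increase with little change in its transcript. ATF4, paired with C/EBP proteins, then switches on genes for amino acid uptake, amino acid synthesis and tRNA charging, while CHOP (Ddit3), TRIB3 and CHAC1 are known for later, damaging stress. In activated T cells, ATF4 is known for supplying amino acids for growth.

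Values are log2 signal, so a difference of 1 is a doubling. Array medians lay between 5.43 and 5.56 over all probe sets, and the replicate arrays of a group correlated with r of 0.974 to 0.982 across them. Probe sets are not independent replicates. The anti-DEC205-BDC arrays correlated with each other at 0.974, the same as the PBS arrays. Yet anti-DEC205-BDC array 2 correlated with the anti-DCIR2-BDC arrays at 0.979 and 0.980, above its value with array 1. The T cell marker genes read 8.31 to 12.1, and genes of B cells, CD8 T cells, plasma cells, myeloid and dendritic cells, red cell precursors and neutrophils read 3.80 to 6.95. With anti-DCIR2-BDC, 6 of the 9 measured T cell markers fell, among them Cd3g by 1.24 (adjusted p = 0.000221, limma) and Cd4 by 0.60 (adjusted p = 0.0157). The log2 of their summed level was 14.1 to 14.2 with PBS, 13.7 to 13.9 with anti-DEC205-BDC and 13.4 with anti-DCIR2-BDC. Of the other lists, Prdm1 from the plasma cell list fell with both antibodies, by 0.73 each, and 0 genes of the remaining lists passed. Their part in the results below was not tested. In bulk cells, fewer cells of a type and less RNA per cell cannot be told apart.

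Asns, which encodes asparagine synthetase and was the only one of the 10 genes to rise with both antibodies, holds a match to the C/EBP-ATF response element just before its start. The element is the DNA motif bound by ATF4 with a C/EBP partner. It was searched for as TGATGNAA on both strands, in windows from 250 bases before to 50 bases after each RefSeq start (GRCm38.p6). Of 32851 windows, 3.97% held it. Of the 10 genes, 3 held it, in 3 of their 11 windows: Asns, Chac1 and Trib3. The Asns and Chac1 stretches, and that of Atf3, a related stress factor, are shown 5′ to 3′ on the gene's strand, with the match in capitals. They are Asns at chr6:7693210-7693258 (minus strand), Chac1 at chr2:119351023-119351082 (plus strand) and Atf3 at chr1:191183410-191183469 (minus strand).
Asns: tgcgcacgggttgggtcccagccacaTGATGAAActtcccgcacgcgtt
Chac1: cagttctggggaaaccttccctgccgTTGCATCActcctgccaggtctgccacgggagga
Atf3: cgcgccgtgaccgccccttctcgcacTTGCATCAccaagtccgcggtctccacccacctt
The capitals begin 23 bases before the start in Asns, where the motif reads along the gene's strand. They begin 193 bases before the start in Chac1 and 110 in Atf3, and there the motif reads on the opposite strand. In Trib3 the match begins at transcript base 15, also on the opposite strand, and is not printed. A match describes letters only. The 3 genes with a match had unlike values: Asns rose with both antibodies, while Chac1 and Trib3 passed in neither comparison with PBS. All arrays of Chac1 and Trib3 read within the range of the marker genes of other cell types. Their missing calls therefore say little about how they responded.

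Groups were compared with limma, with p-values adjusted over all 19938 genes and a threshold of 0.05. Both antibody groups are set against the same 2 PBS arrays, so the 2 comparisons with PBS are not independent.

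Atf4 encodes the factor at the centre of the pathway, and its transcript passed the test in no comparison. The PBS arrays read 7.45 and 7.72, the anti-DEC205-BDC arrays 7.91 and 7.51, and the anti-DCIR2-BDC arrays 7.84 and 8.18. The anti-DEC205-BDC arrays overlapped those of both other groups, while both anti-DCIR2-BDC arrays lay above both PBS arrays. Against PBS the log2 change was 0.13 (95% interval -0.36 to 0.62, adjusted p = 0.824, limma) with anti-DEC205-BDC. With anti-DCIR2-BDC it was 0.43 (-0.06 to 0.92, adjusted p = 0.248). The difference between the antibodies was 0.30 (-0.19 to 0.79, adjusted p = 0.717).

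Atf5 encodes a close relative of ATF4 whose translation is also raised when eIF2 is phosphorylated. It read 7.49 and 7.35 with PBS, 7.78 and 7.84 with anti-DEC205-BDC, and 7.94 and 7.42 with anti-DCIR2-BDC. Both anti-DEC205-BDC arrays lay above the PBS arrays, and the anti-DCIR2-BDC arrays spanned the range from within PBS to the highest value. The log2 changes against PBS were 0.39 (-0.08 to 0.87, adjusted p = 0.347, limma) and 0.27 (-0.21 to 0.74, adjusted p = 0.489).

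Ddit3 encodes CHOP, the factor known for cell death under lasting stress. It read 6.74 and 7.79 on the PBS arrays, which held both its lowest and its highest value. The anti-DEC205-BDC arrays read 7.11 and 7.49 and the anti-DCIR2-BDC arrays 7.14 and 7.37, all inside the PBS range. Its log2 changes against PBS were 0.04 (-0.64 to 0.72, adjusted p = 0.967, limma) and -0.01 (-0.69 to 0.68, adjusted p = 0.994). These intervals are wide beside those of Cebpb and Sesn2.

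Cebpb and Cebpg encode C/EBPβ and C/EBPγ, which pair with ATF4. Cebpb varied least of the 10 genes over the arrays: 6.23 and 6.32 with PBS, 6.19 and 6.04 with anti-DEC205-BDC, and 6.11 and 6.07 with anti-DCIR2-BDC. Its 4 antibody arrays all lay below the PBS arrays, by log2 changes of -0.16 (adjusted p = 0.682, limma) and -0.18 (adjusted p = 0.549). Cebpg read 7.23 and 7.63, then 7.14 and 7.51, then 7.53 and 7.34 in the same order of groups. All groups of Cebpg overlapped, with log2 changes of -0.10 (adjusted p = 0.870) and 0.01 (adjusted p = 0.986).

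**Figure D1:**
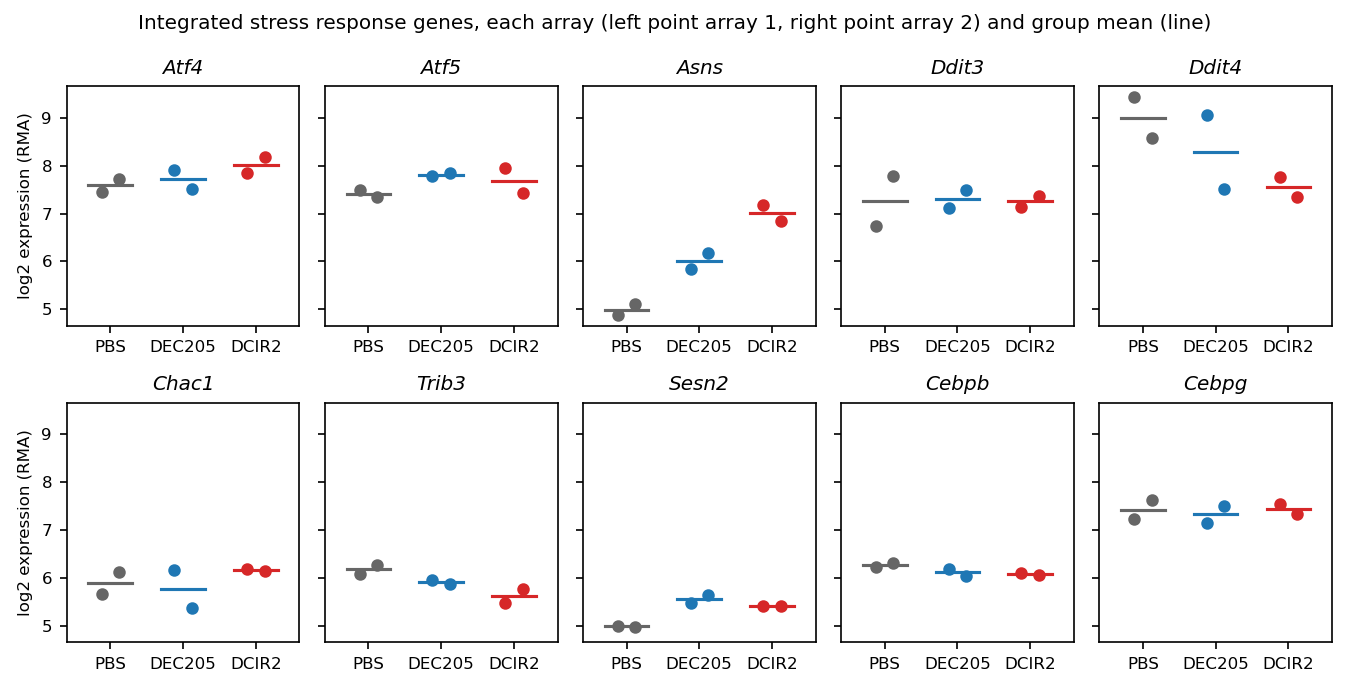
Log2 signal of the 10 genes on each of the 6 arrays, 1 panel a gene; points are arrays (array 1 left, array 2 right) and lines are group means, in the order PBS, anti-DEC205-BDC, anti-DCIR2-BDC. The groups of Asns stand apart, from 4.88 and 5.11 with PBS to 7.18 and 6.84 with anti-DCIR2-BDC, while those of Ddit3 and Cebpg overlap.

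Asns showed the largest change against PBS of the 10 genes. Its PBS arrays read 4.88 and 5.11, its anti-DEC205-BDC arrays 5.84 and 6.17, and its anti-DCIR2-BDC arrays 7.18 and 6.84. The 3 groups did not overlap. Group means were 5.00 ± 0.16 (SD, n = 2), 6.01 ± 0.24 (n = 2) and 7.01 ± 0.24 (n = 2). Asns rose 2.01-fold with anti-DEC205-BDC (log2 change 1.01, SE 0.20, adjusted p = 0.0107, limma) and 4.04-fold with anti-DCIR2-BDC (log2 change 2.01, interval 1.58 to 2.45, adjusted p = 0.000108). The change with anti-DEC205-BDC did not pass without PBS array 1 or anti-DEC205-BDC array 2 (adjusted p of 0.0707 to 0.0723). It did not pass either with every probe set tested (adjusted p = 0.0776), and over all alternatives p ranged from 0.00825 to 0.0776. The change with anti-DCIR2-BDC passed in all 14 alternatives.

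Between the antibodies, Asns was 1.005 higher with anti-DCIR2-BDC (0.57 to 1.44), with both arrays above both anti-DEC205-BDC arrays. The unadjusted p was 0.000416 and the adjusted p 0.169 (limma), which did not pass.

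Sesn2 and Ddit4 encode Sestrin2 and REDD1, which both hold back the growth kinase complex mTORC1. Sesn2 read 5.00 and 4.98 with PBS, 5.48 and 5.64 with anti-DEC205-BDC, and 5.42 and 5.41 with anti-DCIR2-BDC. All 4 antibody arrays were above the PBS arrays, and the anti-DCIR2-BDC arrays lay below both anti-DEC205-BDC arrays. It rose 1.49-fold with anti-DEC205-BDC (log2 change 0.57, 0.25 to 0.89, adjusted p = 0.0341, limma). With anti-DCIR2-BDC its log2 change was 0.42 (0.11 to 0.74, adjusted p = 0.0706), and between the antibodies it was -0.15 (adjusted p = 0.808). Leaving out any 1 of the 6 arrays took the anti-DEC205-BDC change of Sesn2 out of the calls (adjusted p of 0.0599 to 0.171), and it passed in 6 of 14 alternatives.

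Ddit4 ran the other way. It read 9.43 and 8.57 with PBS, 9.06 and 7.52 with anti-DEC205-BDC, and 7.76 and 7.35 with anti-DCIR2-BDC. The anti-DEC205-BDC arrays differed from each other more than the group means did, while both anti-DCIR2-BDC arrays were below both PBS arrays. Ddit4 fell 2.72-fold with anti-DCIR2-BDC (log2 change -1.44, SE 0.44, -2.41 to -0.48, adjusted p = 0.0435, limma). That fall was lost on leaving out PBS array 1 (adjusted p = 0.252), anti-DCIR2-BDC array 1 (0.119) or anti-DCIR2-BDC array 2 (0.261), and it passed in 8 of 14 alternatives. With anti-DEC205-BDC the change was -0.71 (-1.68 to 0.26, adjusted p = 0.419). Without anti-DEC205-BDC array 1 it was -1.48 and passed (adjusted p = 0.0343), and without anti-DEC205-BDC array 2 it was 0.06 (adjusted p = 0.965), so its direction rested on that array.

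Trib3 encodes a pseudokinase that binds ATF4 and CHOP and damps their activity. It read 6.09 and 6.28 with PBS, 5.96 and 5.87 with anti-DEC205-BDC, and 5.47 and 5.77 with anti-DCIR2-BDC, 3 groups that did not overlap. The order of its group means, 6.18, 5.91 and 5.62, was the reverse of that of Asns. Against PBS, the log2 change of Trib3 was -0.27 (-0.66 to 0.12, adjusted p = 0.449, limma) with anti-DEC205-BDC and -0.56 (-0.95 to -0.17) with anti-DCIR2-BDC. The latter lay just outside the threshold, with an adjusted p of 0.05004, and over the alternatives p ranged from 0.0418 to 0.298.

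Chac1 encodes an enzyme that degrades glutathione. It read 5.67 and 6.12 with PBS, 6.16 and 5.38 with anti-DEC205-BDC, and 6.18 and 6.15 with anti-DCIR2-BDC. The anti-DEC205-BDC arrays spanned the PBS range, and the anti-DCIR2-BDC arrays lay just above it. Its log2 changes were -0.13 (-0.69 to 0.43, adjusted p = 0.851, limma) and 0.27 (-0.29 to 0.83, adjusted p = 0.568).

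**Figure D2:**
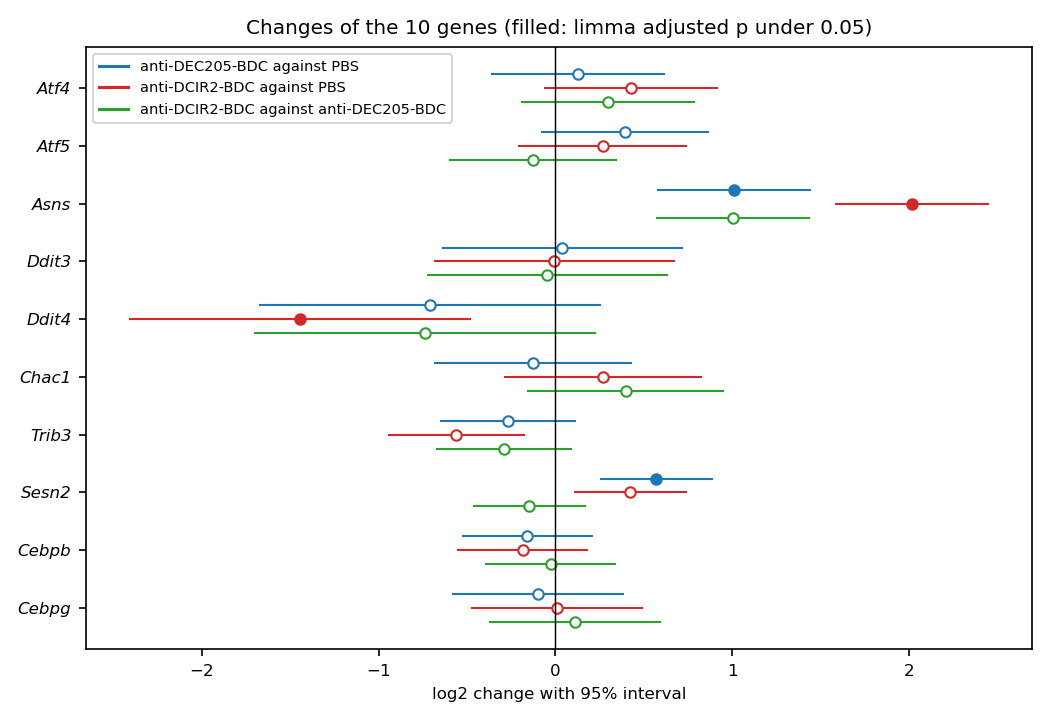
Log2 change of each of the 10 genes with its 95% interval in the 3 comparisons, in limma; filled points passed an adjusted p of 0.05. Asns lies to the right at 1.01 and 2.01 against PBS, Ddit4 to the left at -1.44 with anti-DCIR2-BDC, and the intervals of Ddit3 and Cebpg include 0 in all comparisons.

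With anti-DEC205-BDC, 2 of the 10 genes rose (Asns and Sesn2) and 0 fell in limma, where 5.32% of all genes rose and 3.53% fell. The same 2 genes had an unadjusted p under 0.05, a share near the 20.7% of all genes that did. With anti-DCIR2-BDC, 1 rose (Asns) and 1 fell (Ddit4), against 10.1% and 7.82% of all genes, so the share of the 10 that passed was near that of all genes. An unadjusted p under 0.05 was found for 4 of the 10, beside 28.1% of all genes. Their median log2 change was -0.03 with anti-DEC205-BDC and 0.14 with anti-DCIR2-BDC, beside -0.03 and -0.05 over all genes.

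Between the antibodies 0 of the 10 passed in either direction in limma, and 1 (Asns) had an unadjusted p under 0.05, beside 10.2% of all genes. Over all genes 0.0201% were higher with anti-DCIR2-BDC and 0% lower. Arrays of the groups did not overlap for 5 of the 10 genes with anti-DEC205-BDC against PBS, 7 with anti-DCIR2-BDC against PBS and 3 between the antibodies. The shares over all genes were 48.8%, 55.3% and 40.2%.

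The 10 genes did not move as 1 block over the arrays. Of their 45 pairs, Pearson's r over the 6 arrays ran from -0.93 (Asns with Trib3) to 0.78 (Atf4 with Chac1), with a median of -0.04. These points share arrays and groups, and the values are a description.

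Upstream of ATF4 stand the eIF2 kinases. The list held the 4 kinases HRI (Eif2ak1), PKR (Eif2ak2), PERK (Eif2ak3) and GCN2 (Eif2ak4), with Gcn1, which activates GCN2, and Impact, which inhibits it. With anti-DEC205-BDC 0 of 6 passed in limma, where 5.32% of all genes rose and 3.53% fell. There 1 of 6 had an unadjusted p under 0.05, beside 20.7% of all genes. With anti-DCIR2-BDC 3 of 6 had an unadjusted p under 0.05, beside 28.1% of all genes. There 1 of 6 passed, where 10.1% of all genes rose and 7.82% fell: Gcn1 rose by 0.82 (adjusted p = 0.0241). Its arrays read 7.40 and 7.66 with PBS, 7.75 and 8.10 with anti-DEC205-BDC, and 8.16 and 8.54 with anti-DCIR2-BDC. Without PBS array 1 or anti-DCIR2-BDC array 2, Gcn1 did not pass (adjusted p of 0.132 to 0.202). Eif2ak3 had negative values against PBS, -0.54 (adjusted p = 0.0773) and -0.42 (adjusted p = 0.122), while Eif2ak4 was at 0.15 and 0.51. With anti-DCIR2-BDC, Eif2ak4 passed only without PBS array 2 (adjusted p = 0.0227).

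The kinases act on the α subunit of eIF2 (Eif2s1), which was not measured here. Of 7 measured genes for other subunits of eIF2 and for its exchange factor eIF2B, 5 rose with anti-DEC205-BDC and 6 with anti-DCIR2-BDC, and 0 fell. Their median log2 changes were 1.06 and 1.46. Of all genes, 5.32% rose with anti-DEC205-BDC and 10.1% with anti-DCIR2-BDC. As this list was also chosen with earlier results known, its counts are a description. Eif2s2, the β subunit of eIF2, read 8.81 and 8.40 with PBS, 9.89 and 9.92 with anti-DEC205-BDC, and 10.3 and 10.5 with anti-DCIR2-BDC. All 4 antibody arrays of Eif2s2 were above the PBS arrays, with log2 changes of 1.30 (adjusted p = 0.00207, limma) and 1.80 (adjusted p = 0.000112). Eif2s3x, the γ subunit, rose by 1.06 and 1.46. Among eIF2B subunits, Eif2b3 rose by 1.28 and 1.88, Eif2b5 by 1.06 and 1.57, and Eif2b1 by 0.96 and 1.37. Eif2b4 was at 0.52 (adjusted p = 0.200) with anti-DEC205-BDC and rose by 0.96 (adjusted p = 0.0111) with anti-DCIR2-BDC. Eif2b2 passed with neither antibody, at -0.03 and 0.40.

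Some of these calls rested on single arrays. The anti-DEC205-BDC change of Eif2b1 did not pass without PBS array 2 or either anti-DEC205-BDC array (adjusted p of 0.0572 to 0.103). That of Eif2b5 did not pass without PBS array 1 or either anti-DEC205-BDC array (0.0539 to 0.133). The anti-DCIR2-BDC change of Eif2b4 did not pass without PBS array 1 or either anti-DCIR2-BDC array (0.0568 to 0.0929).

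The phosphatase that reverses the mark on eIF2 is made of a catalytic subunit and a regulatory one, GADD34 (Ppp1r15a) or CReP (Ppp1r15b). With either antibody 0 of its 5 subunit genes passed in limma. In each comparison 1 had an unadjusted p under 0.05, beside 20.7% of all genes with anti-DEC205-BDC and 28.1% with anti-DCIR2-BDC. Ppp1r15a, itself an ATF4 target, read 8.65 and 8.01 with PBS, 7.93 and 7.51 with anti-DEC205-BDC, and 7.78 and 7.68 with anti-DCIR2-BDC. All 4 antibody arrays of Ppp1r15a were below both PBS arrays, at log2 changes of -0.61 (adjusted p = 0.188) and -0.60 (adjusted p = 0.138). With anti-DCIR2-BDC it passed only without PBS array 2, at -0.92 (adjusted p = 0.0390). The other 4 subunit genes lay between -0.22 and 0.23.

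Of 15 paralogs of the 10 genes, 2 rose and 2 fell with anti-DEC205-BDC, beside 5.32% and 3.53% of all genes. With anti-DCIR2-BDC 4 rose and 3 fell, beside 10.1% and 7.82% of all genes. Atf3, a stress factor induced alongside ATF4, read 4.58 and 4.40 with PBS, 5.17 and 5.30 with anti-DEC205-BDC, and 5.76 and 5.36 with anti-DCIR2-BDC. It rose by 0.74 (adjusted p = 0.0210, limma) and 1.07 (adjusted p = 0.00137). The smaller change of Atf3 was lost whichever of the 4 arrays it compares was left out (0.0516 to 0.116). Atf6 and Atf6b, membrane-bound sensors of unfolded protein, rose with anti-DCIR2-BDC by 1.01 (adjusted p = 0.00938) and 1.13 (adjusted p = 0.00220). Atf6 did not pass without PBS array 2 or anti-DCIR2-BDC array 2 (0.0707 to 0.103).

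In the Sestrin family the genes went different ways. Sesn1 read 8.09 and 8.24 with PBS, 7.52 and 7.06 with anti-DEC205-BDC, and 6.77 and 6.52 with anti-DCIR2-BDC. It fell by 0.87 (adjusted p = 0.0306, limma) and by 1.52 (adjusted p = 0.000740), where Sesn2 was at 0.57 and 0.42. Sesn3 was at -0.32 (adjusted p = 0.398) with anti-DEC205-BDC and fell by 1.25 (adjusted p = 0.00125) with anti-DCIR2-BDC. Among Tribbles genes, Trib2 fell by 1.26 (adjusted p = 0.00346) and 1.04 (adjusted p = 0.00368), and Trib1 rose by 0.93 (adjusted p = 0.0444) and 1.20 (adjusted p = 0.00674). The anti-DEC205-BDC change of Sesn1 did not pass without either PBS array, anti-DEC205-BDC array 2 or either anti-DCIR2-BDC array (0.0557 to 0.196). That of Trib1 was lost with any 1 of the 4 arrays compared left out (0.0557 to 0.211), as was its anti-DCIR2-BDC change without anti-DCIR2-BDC array 2 (0.0830).

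Of 37 other measured ATF4 target genes, 16 rose and 0 fell with anti-DEC205-BDC in limma, beside 5.32% and 3.53% of all genes. With anti-DCIR2-BDC 24 rose and 1 fell, beside 10.1% and 7.82% of all genes. The median log2 changes of the 37 were 0.51 and 0.88, beside -0.03 and -0.05 over all genes. The list was chosen with earlier results of these data known, so these counts are a description. Genes that charge or export tRNAs made up much of these counts: 10 of 12 rose with anti-DEC205-BDC and 12 of 12 with anti-DCIR2-BDC, with median changes of 1.17 and 1.64. This division of the targets by role was made after their values were seen. Iars, the isoleucine tRNA synthetase, read 8.10 and 8.15 with PBS, 9.47 and 9.55 with anti-DEC205-BDC, and 10.3 and 10.2 with anti-DCIR2-BDC. Its groups did not overlap, and it rose by 1.39 (adjusted p = 0.000883) and 2.11 (adjusted p = 3.93e-05). The other 2 of the 12, Cars and Sars, were at 0.74 (adjusted p = 0.0544) and 0.41 (adjusted p = 0.231) with anti-DEC205-BDC. With anti-DCIR2-BDC, Sars did not pass without PBS array 1 or either anti-DCIR2-BDC array (0.105 to 0.155). With anti-DEC205-BDC, Cars passed in 6 of 14 alternatives (adjusted p of 0.0361 to 0.291), among them that without PBS array 2 (0.0422).

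Among 9 amino acid transporters, 4 rose with anti-DEC205-BDC and 5 with anti-DCIR2-BDC, beside 5.32% and 10.1% of all genes. Slc7a5, which takes up large neutral amino acids, read 8.16 and 7.98 with PBS, 9.80 and 10.2 with anti-DEC205-BDC, and 10.3 and 10.9 with anti-DCIR2-BDC. It rose by 1.95 (adjusted p = 0.000781, limma) and 2.52 (adjusted p = 5.95e-05). Slc1a5, a glutamine carrier, rose by 1.76 and 2.04, Slc7a1, a carrier of cationic amino acids, by 1.20 and 1.46, and Slc3a2, the partner chain of Slc7a5, by 0.63 and 0.87. The anti-DEC205-BDC change of Slc3a2 was lost whichever 1 of the 6 arrays was left out (0.0537 to 0.297), and that of Slc7a1 without PBS array 1 or anti-DEC205-BDC array 2 (0.0743 to 0.0907). Slc1a4, a neutral amino acid carrier, was at 0.17 (adjusted p = 0.654) with anti-DEC205-BDC and rose by 0.64 (adjusted p = 0.0194) with anti-DCIR2-BDC. It did not pass without either PBS array or anti-DCIR2-BDC array 2 (0.0569 to 0.160).

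Among 9 measured enzymes of amino acid and one-carbon synthesis, 2 rose with anti-DEC205-BDC and 6 with anti-DCIR2-BDC, beside 5.32% and 10.1% of all genes. Psat1, an enzyme of serine synthesis, read 6.31 and 6.26 with PBS, 8.13 and 8.06 with anti-DEC205-BDC, and 8.75 and 9.08 with anti-DCIR2-BDC. Shmt2, which moves one-carbon units from serine in mitochondria, read 7.40 and 7.27, then 9.32 and 9.52, then 9.96 and 10.05. Neither gene's groups overlapped. Psat1 rose by 1.81 (adjusted p = 0.000772, limma) and 2.63 (adjusted p = 3.93e-05), and Shmt2 by 2.09 (adjusted p = 0.000306) and 2.67 (adjusted p = 3.75e-05).

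Of the 7 measured stress regulators and secreted factors on the same list, 0 passed with anti-DEC205-BDC in limma, and 1 rose and 1 fell with anti-DCIR2-BDC, where 10.1% and 7.82% of all genes did. Their median changes were -0.06 and -0.15, and no difference between these groups by role was tested. Eif4ebp1, a brake on translation initiation, rose by 0.75 (adjusted p = 0.0142) and Gadd45a, a growth arrest gene, fell by 0.84 (adjusted p = 0.0147). Neither held without PBS array 1 or either anti-DCIR2-BDC array, and Eif4ebp1 also not without PBS array 2 (adjusted p of 0.0502 to 0.111 for Eif4ebp1 and 0.0725 to 0.109 for Gadd45a). Nupr1, a stress-induced cofactor, was at -0.04 and -0.28, and Fgf21, a secreted factor, at -0.17 and -0.15. Over the arrays, Vldlr read only 4.82 to 5.02, Fgf21 5.06 to 5.42, Jdp2 5.06 to 5.49 and Nupr1 5.43 to 5.80. Stc2 had group means of 5.63 to 5.80. These levels lay within the range of the marker genes of other cell types. The missing calls therefore say little about how these genes responded.

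**Figure D3:**
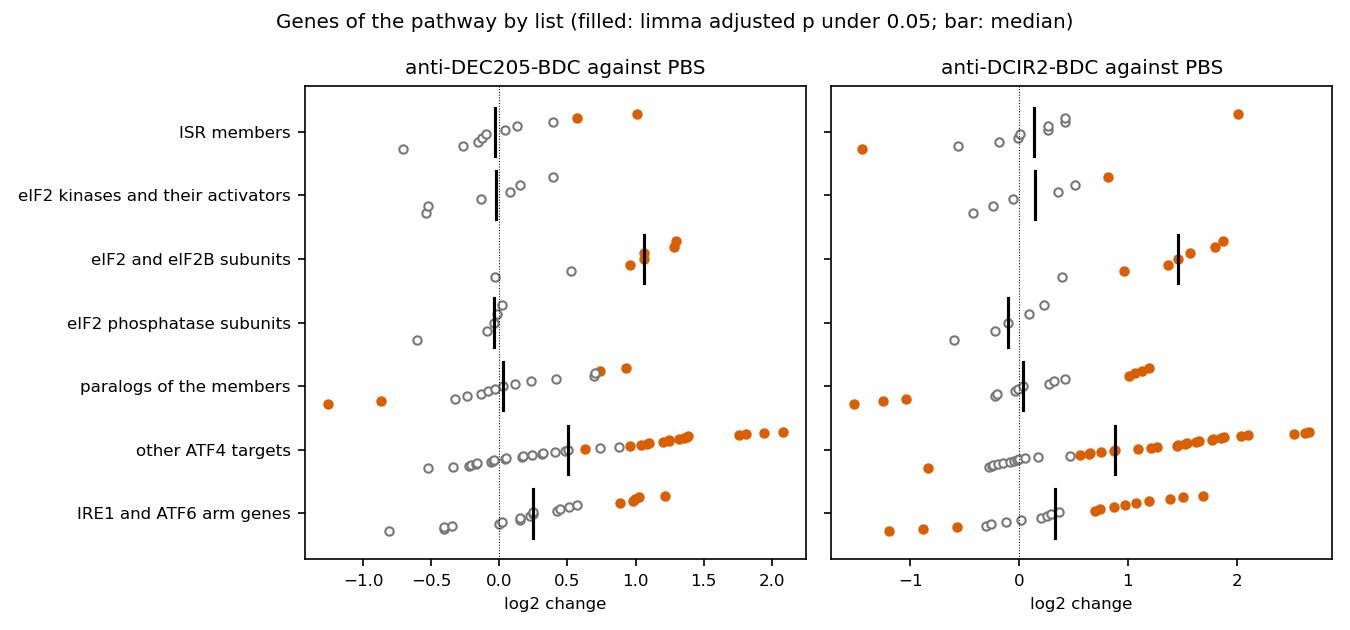
Log2 change against PBS of each measured gene in the lists of the pathway, with anti-DEC205-BDC and anti-DCIR2-BDC side by side on separate scales; each point is a gene, filled points passed limma at an adjusted p of 0.05, and the bar is the list's median. The eIF2 and eIF2B subunits (medians 1.06 and 1.46) and the other ATF4 targets (0.51 and 0.88) lie to the right of the 10 genes (-0.03 and 0.14).

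The endoplasmic reticulum has further sensors of unfolded protein, IRE1 and ATF6, which act beside PERK. Of 20 genes of these arms, 5 rose and 0 fell with anti-DEC205-BDC in limma, beside 5.32% and 3.53% of all genes. With anti-DCIR2-BDC 9 rose and 3 fell, beside 10.1% and 7.82%. The genes that rose encode folding helpers: Pdia6 by 1.22 and 1.70, Hyou1 by 0.98 and 1.51, Creld2 by 0.998 and 1.39, Canx by 0.89 and 1.20, and Sdf2l1 by 1.02 and 1.08. Canx, the chaperone calnexin, read 9.14 and 9.22 with PBS, 10.1 and 10.03 with anti-DEC205-BDC, and 10.4 and 10.4 with anti-DCIR2-BDC, and its adjusted p was 0.00411 and 0.000270. The anti-DEC205-BDC changes did not pass without PBS array 1 or anti-DEC205-BDC array 2 for Pdia6 (0.0641 to 0.0666), PBS array 2 or anti-DEC205-BDC array 2 for Hyou1 (0.0995 to 0.126) and PBS array 1 for Creld2 (0.0689). Sdf2l1 did not pass without either PBS array or anti-DEC205-BDC array 2 (0.0519 to 0.103), nor with anti-DCIR2-BDC without its array 1 (0.0615).

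The 3 genes that fell with anti-DCIR2-BDC, named after their values were seen, were Dnajb9, Edem1 and Dnajc3. Dnajb9 and Dnajc3 encode co-chaperones of BiP, and Edem1 a factor that sends misfolded proteins to degradation. Dnajb9 read 9.32 and 8.66 with PBS, 8.67 and 7.69 with anti-DEC205-BDC, and 7.68 and 7.91 with anti-DCIR2-BDC. Dnajb9 fell by 1.19 (adjusted p = 0.0241, limma), Edem1 by 0.88 (adjusted p = 0.0131) and Dnajc3 by 0.57 (adjusted p = 0.0315). Dnajb9 did not pass without PBS array 1 or either anti-DCIR2-BDC array (0.0959 to 0.164), Edem1 without PBS array 2 or anti-DCIR2-BDC array 1 (0.0771 to 0.111), and Dnajc3 without any 1 of the 4 arrays compared (0.0962 to 0.148). With anti-DEC205-BDC, Dnajb9 was at -0.81 (adjusted p = 0.168) and passed without anti-DEC205-BDC array 1 (0.0311).

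The C/EBP-ATF motif was also searched in the promoters of the other lists. Of 28 other ATF4 targets with a window, 10 held it (35.7%), as did 1 of 11 paralogs (Atf3), 1 of 6 eIF2 and eIF2B subunits (Eif2s3x) and 1 of 18 genes of the IRE1 and ATF6 arms (Herpud1, which was at 0.02 with both antibodies). In the kinase and phosphatase lists 0 of 5 and 0 of 3 genes held it. These shares are by gene. By window, 10 of 35 (28.6%) of the other ATF4 targets held it, beside 3.97% of all windows. Known ATF4 targets include genes first studied for this element, so the shares are a description. Gars and Tars, tRNA synthetases for glycine and threonine that rose with both antibodies, carry it close to the start, at chr6:55037945-55038000 (plus strand) and chr15:11399659-11399699 (minus strand), with the match again in capitals. Slc7a11, a cystine carrier at chr3:50443646-50443705 (minus strand), carries it 2 times and did not pass.
Gars: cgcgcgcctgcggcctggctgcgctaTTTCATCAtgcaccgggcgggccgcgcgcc
Tars: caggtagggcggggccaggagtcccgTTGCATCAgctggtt
Slc7a11: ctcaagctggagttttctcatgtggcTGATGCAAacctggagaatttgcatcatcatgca
The match begins 30 bases before the start in Gars and 15 in Tars. In Slc7a11 the capitals begin 66 bases before the start, and the other match, on the opposite strand, begins 47 bases before it. Gars rose by 1.04 (adjusted p = 0.00686, limma) and 1.45 (adjusted p = 0.000398), and Tars by 1.25 (adjusted p = 0.0107) and 1.79 (adjusted p = 0.000579). Tars did not pass with anti-DEC205-BDC without PBS array 1 (0.0599). Slc7a11 was at 0.04 (adjusted p = 0.905) and -0.08 (adjusted p = 0.753). It read only 3.96 to 4.19 over the arrays, within the range of the marker genes of other cell types, so these values say little about its response. The genes with the motif were named after their values were seen, and among them are both genes with large changes and genes with none that passed. Of the latter, Fgf21, Vldlr, Jdp2, Nupr1, Chac1 and Trib3 also read within that range on all arrays, as given above.

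**Figure D4:**
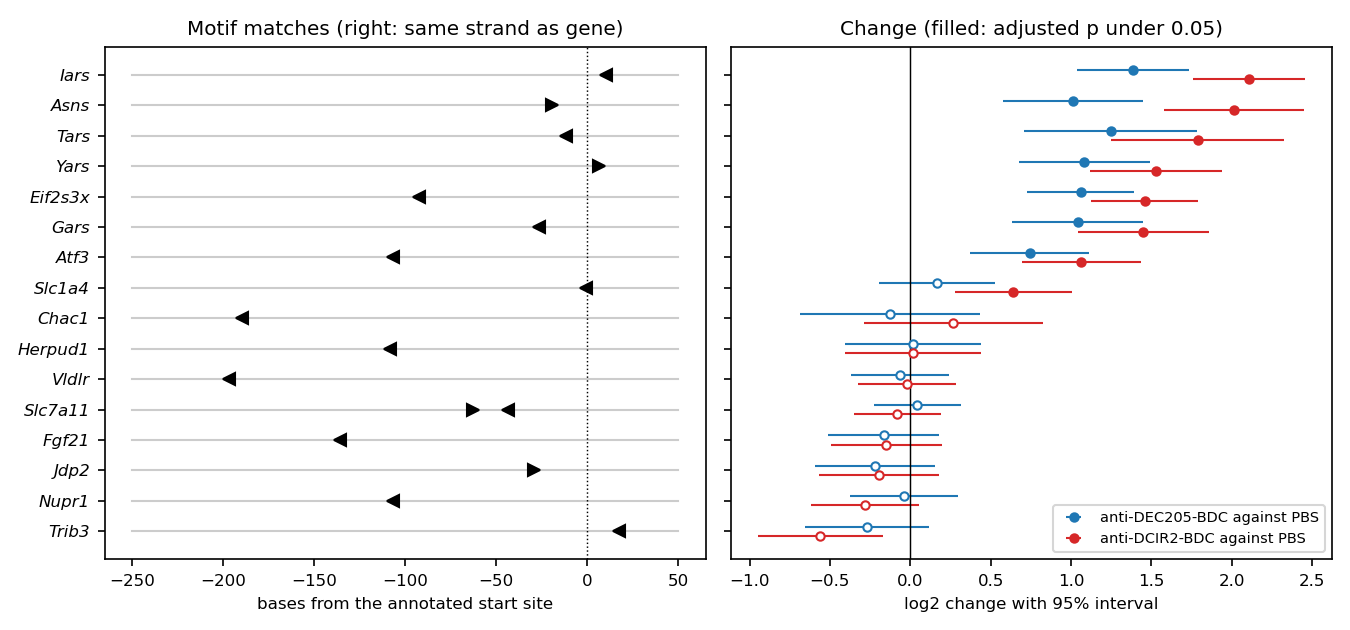
Left, position of each match in bases from the RefSeq start for the listed genes that hold the motif, with arrows to the right for the gene's own strand; right, log2 change against PBS with its 95% interval for both antibodies, filled where limma's adjusted p was under 0.05. Genes are ordered by the anti-DCIR2-BDC change, from Iars (2.11) and Asns (2.01) down to Nupr1 (-0.28) and Trib3 (-0.56).

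The genes whose levels followed Atf4 most closely over the 6 arrays were Tlcd3a (Pearson's r of 0.93), Ptcd2 (0.91), Creg1 (0.90), Usp30 (0.90) and Rpusd2 (0.89). They are the highest of 1950 genes with an SD over the arrays of at least 0.5. None is on a list above, and the 6 points share 3 groups. Atf4 itself ranged over 0.73 across the arrays, against 2.30 for Asns.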

How the data were processed

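Gene expression was measured on 6 Affymetrix arrays, 3 groups of 2. The labels' protocols name a PicoPure kit for the RNA and a NuGen Ovation pico kit that amplified 5 ng of it, a step that can add noise. The deposited values are log2 signals per probe set. Per the submitters' processing notes, the authors obtained them with RMA in Partek, whose version is not given in the sources used here. RMA equalises the arrays' distributions, which hides any shift common to every gene. Precision is limited by the 2 arrays in each group. The labels call the arrays biological duplicates without naming the mice. The p-values therefore set each change against the spread between these samples. For each gene, limma pooled that spread over the 3 groups and drew it toward that of other genes.

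Of 35556 probe sets, 21789 named 1 symbol, 1621 several and 12146 none. Where a gene had more than 1 such probe set (999 genes), that with the highest mean over the arrays stood for it. limma 3.58.1 (R 4.3.3) fitted 1 mean per group over all 6 arrays with a variance trend, and two-sided p-values were adjusted by Benjamini-Hochberg over 19938 genes. Alternatives covered the scaling, the dim-gene filter, the probe set rule, the trend, the replicate block, the arrays fitted and leaving out each array.

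The members and lists were chosen with earlier results of these data known. Named were all members, every gene of a list of 8 or fewer, and up to 4 genes with the largest change per other list and comparison. Genes with the motif or in small counts were named after their values were seen. The listed genes Eif2s1, Pycr1, Aars, Gdf15 and Lck had no probe set naming them alone. Promoter sequences are RefSeq's.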

Additional observations from a re-analysis of the deposited data

How the results depend on the processing

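Of the values of 64 named genes under 14 alternatives, 2543 kept their side of the threshold, 112 lost their call, 24 gained one and 0 called values reversed. The 2543 include values that changed sign while uncalled under both settings. Of 420 values of the 10 genes, 22 changed sign, all of them uncalled under both settings. Unless stated, the cause was not tested. Leaving out 1 array gave 601 to 852 genes higher and 359 to 515 lower with anti-DEC205-BDC, 1179 to 2046 and 800 to 1594 with anti-DCIR2-BDC, and 0 to 12 and 0 to 15 between the antibodies. Of the 10 genes, 0 to 1 rose and 0 to 1 fell with anti-DEC205-BDC, and 1 to 1 and 0 to 1 with anti-DCIR2-BDC.

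With anti-DCIR2-BDC, 2 of the 10 genes fell with the replicate block, without the dimmest 30% of genes and with the mean of probe sets, and 0 fell with median centring or every probe set. In the count of 2, Trib3 (adjusted p of 0.0443, 0.0423 and 0.0493, limma) joined Ddit4. With no variance trend, Trib3 passed (0.0418) and Ddit4 did not (0.0654). There 2 of the 10 rose with quantile scaling, median centring and without the dimmest 30%, Sesn2 (0.0329, 0.0335 and 0.0466) joining Asns. With anti-DEC205-BDC, 1 rose with only the 4 arrays compared and 0 with every probe set. Every probe set, which adjusts over 35556 tests, gave 512 probe sets higher and 182 lower. Between the antibodies, all genes gave 2 higher with the replicate block, 0 with no trend, 0 with every probe set, and 2 lower without the dimmest 30%.

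The labels share replicate numbers, but nothing says that they mark a mouse or day. Differences between arrays 1 and 2 correlated between groups with r of 0.145, 0.131 and 0.071. These values cannot show whether equal numbers share a mouse or day. The block changed no other call of the 10 genes. Dim probe sets limit what can be seen. By the mean over all 6 arrays, 0 of the 10 genes lay in the dimmest 30%. The PBS arrays of Asns (4.88 and 5.11) and Sesn2 (5.00 and 4.98) still read below the lowest array median of 5.43. All arrays of Sesn2, Cebpb, Chac1 and Trib3, and of Atf3 and Slc1a4, lay within the range of the marker genes of other cell types. That limit holds for these genes whether called or not.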
